A study of Mus musculus with 2 samples.

Results

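Junctions with both splice sites new are splices for which neither the donor end nor the acceptor end of the intron is an exon boundary of the ENSEMBL annotation of mm9. They were taken from a list of 1024689 junctions called from mouse embryonic liver. A member had to be flagged as unannotated (A=0), to carry the list's second flag (C=1, whose meaning the list does not define), and to have an irreproducibility value of at most 0.01. Of 229683 junctions with these flags, 17977 had such a value, and 201 of those lay in 2 windows around the globin genes that were left out. Of the rest, 3956 joined a pair of known sites in a way the annotation does not, 10377 had 1 known site, and 3443 had none. The members were thus chosen by measured values, since the irreproducibility value rests on the reads of R1 and R2. These 3443 are described here, beside the 133455 annotated junctions that also carried C=1, passed the same threshold and lay outside the windows.

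The study sequenced polyadenylated RNA longer than 200 bases, depleted of ribosomal RNA, in stranded libraries read from both ends. The tissue was whole liver of C57BL/6J embryos at day 14, from littermates of both sexes, with no treatment, and 2 libraries labelled as biological replicates form its only group. The junction list gives reads for replicates R1 and R2 without saying which library is which. It holds 80752918 junction reads for R1 and 114217023 for R2. The gene table names its libraries. There Alb, made by hepatocytes, stood at 9112 and 10440 TPM (a transcript level scaled by length and depth) and Alas2, made by red cell precursors, at 847 and 941, each time for replicate 1 and then 2, so transcripts of both cell types were abundant. The T cell genes Cd3e and Cd8a were at 0 TPM in both libraries. Transcripts of skeletal muscle differed between the libraries, whose summed level over 8 genes was 66.9 and 3.73 TPM in replicates 1 and 2, and their part in the junction reads was not tested.

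Splicing removes an intron between a donor site, which nearly always starts with the bases GT, and an acceptor site, which nearly always ends with AG. A junction with both sites absent from an annotation can come from a transcript that the annotation lacks, from an extra exon or a removed stretch inside a known gene, or from reads of a repeated sequence aligned across its copies. Fetal liver at this age makes red blood cells as well as plasma proteins, and both programmes give very abundant messages.

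The sequences that the most-read members join are shown first, since a reader can search for them directly. They come from GENCODE M21 transcripts (GRCm38), where a member had been matched to one by its lengths rather than by converted coordinates. Lower case marks the last 15 bases of the upstream exon and capitals mark the first 15 bases of the downstream exon, 5′ to 3′ on the transcript's strand, with the mm9 position of the removed intron in each name.
Snhg8, chr3:123210781-123211029, minus strand: ccgctgggtcggatgGAAACGCCGGGACCC
Rpl41, chr10:127985486-127985713, minus strand: gaagagaatgcgcagGCTGAAGCGCAAGAG
Elob, chr17:23965946-23966049, minus strand: gcagccgccgggatgGACGTGTTTCTCATG
Snhg1, chr19:8799537-8799711, plus strand: ctcaggcattcaaagGTTCTGTTAGCAGTG
Snhg1, chr19:8800317-8800556, plus strand: ccaggctaaaataagGTCTGAGGAAAAGAA
Snhg1, chr19:8799212-8799503, plus strand: ccaggatgagtgcagGTTTTCCTGGTGACA
Ssr2, chr3:88383609-88383801, plus strand: tttggggtgctcacgATGAGGCTGCTGGCG
Ndufb1-ps, chr12:103207848-103213869, minus strand: gtcaccaggctgaagCAGTCAAGATGACCT
Ndufb1-ps, chr12:103207845-103213869, minus strand: gtcaccaggctgaagTCAAGATGACCTTAT

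The last pair of joins used 1 donor and acceptors 3 bases apart, so that the upper exon begins with the extra bases CAG. The acceptor that keeps CAG had 2556 reads in R1 and 3072 in R2, and the acceptor that drops it had 434 in R1 and 593 in R2. The first was therefore the more used in both replicates. Among all members, 26 pairs shared 1 end and had the other 3 bases apart, and in 20 of them the acceptor was the end that differed. Every pair that differed at the donor lay in a short stretch of Sos2 with recurring lengths, described below. Some of the pairs that differed at the acceptor lay there too. The long noncoding RNA gene Firre held 3 such pairs, 2 of them with introns of 79 and 82 bases. The acceptor that gave an intron of 79 bases had 59 and 50 reads in R1 and 125 and 96 in R2 at its 2 places, and the acceptor that gave an intron of 82 bases had 29 and 19 reads in R1 and 47 and 39 in R2. The third pair joined the donor of one of these places to the acceptors of the other. Its introns of 35542 and 35545 bases had 45 and 17 reads in R1 and 95 and 34 in R2. Whether reads were counted at more than 1 of these places was not tested.

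Where the members lay differed from every other class of junction. Of the 3443 members, 1033 (30%, exact 95% interval 28.5 to 31.6%) lay wholly inside a gene span of their strand. Of the 2410 outside, 1567 (45.5% of all members) were intergenic, 432 (12.5%) overlapped a gene of their strand without lying within it, and 411 (11.9%) only overlapped a gene of the other strand. Junctions with 1 new site lay inside a gene in 93.0% of cases, those joining known sites in a new way in 76.6%, and the annotated ones in 100%, as a known site itself belongs to a gene. The rule therefore fixes much of this contrast, and it is a description with no test. The interval treats members as independent, though many share an end or a gene with another. Of the 1567 intergenic members, 716 (45.7%) were within 10000 bases of a gene of their strand and 137 (8.74%) were more than 100000 bases from one, with a median distance of 12913 bases.

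Most members were read at low depth. The median was 30 reads over both replicates (12 in R1 and 19 in R2), against 218 for annotated junctions (82 in R1 and 136 in R2). Reads bear on the irreproducibility value that chose the members, so these levels are descriptions. Members inside genes had a median of 30 reads and those outside a median of 31. Of all members, 529 had at least 100 reads and 45 had at least 1000. Together they held 369948 reads, which was 0.19% of all junction reads.

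The 15 most-read members inside genes were led by a single locus. 4 of the first 5 lay in the gene ENSMUSG00000090867 on chromosome 19, at a place that matched Snhg1 of GENCODE M21 by its run of intron and exon lengths. Snhg1 is a noncoding host gene whose introns carry small nucleolar RNAs, which guide the chemical modification of ribosomal RNA. The intron chr19:8799537-8799711 had 3440 reads in R1 and 5058 in R2, and chr19:8800317-8800556, which holds Snord22, had 3751 and 4626. The intron chr19:8799212-8799503 had 3230 reads in R1 and 4622 in R2, and chr19:8798974-8799161 had 1960 and 2464. Each of these 4 introns held 1 snoRNA gene and lay within an exon of the ENSEMBL gene. Their reads were 106%, 104%, 97.5% and 54.9% of the median annotated junction of the same gene, so 3 of them were used about as much as its annotated introns.

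The next most-read members inside genes were in protein-coding genes. In Ssr2, a subunit of the translocon-associated complex of the endoplasmic reticulum, the intron chr3:88383609-88383801 had 2820 reads in R1 and 4272 in R2, and it lay in an untranslated part of an ENSEMBL exon. In Nolc1, a nucleolar phosphoprotein gene, chr19:46158121-46158244 had 1514 reads in R1 and 1797 in R2. Fkbp8, an immunophilin of the mitochondrial membrane, had an intron at chr8:73051742-73053295 with 1146 and 1747 reads. All 3 were at or above 74.3% of the median annotated junction of their gene. Uba2, a subunit of the enzyme that activates SUMO, had 1077 and 1625 reads at chr7:34931317-34932534, which was 114% of its gene's median. Eif3a, a translation initiation factor, had 844 and 1420 reads at chr19:60854047-60855256, which was 91.9%.

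The other 6 of the 15 had 1064 to 1760 reads over both replicates. Pebp1, an inhibitor of Raf kinase, had 626 reads in R1 and 1134 in R2, Kif5b, a kinesin heavy chain, had 514 and 848, and Mylk3, a myosin light chain kinase, had 464 and 816. Fbxo9, an F-box protein, had 459 and 783, Mmp14, a membrane-bound metalloprotease, had 492 and 572, and Eif2b1, a subunit of the exchange factor for translation initiation, had 412 and 652. The Kif5b member had 245% of the median of its gene's annotated junctions and the Mmp14 member 143%. Across all 823 members inside a gene with at least 3 annotated junctions, the median was 6.36% of the gene's median junction, with a 10th percentile of 0.508% and a 90th of 86.9%. Of the 823, 66 (8.02%) were at or above their gene's median and 127 (15.4%) were under 1% of it.

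**Figure D1:**
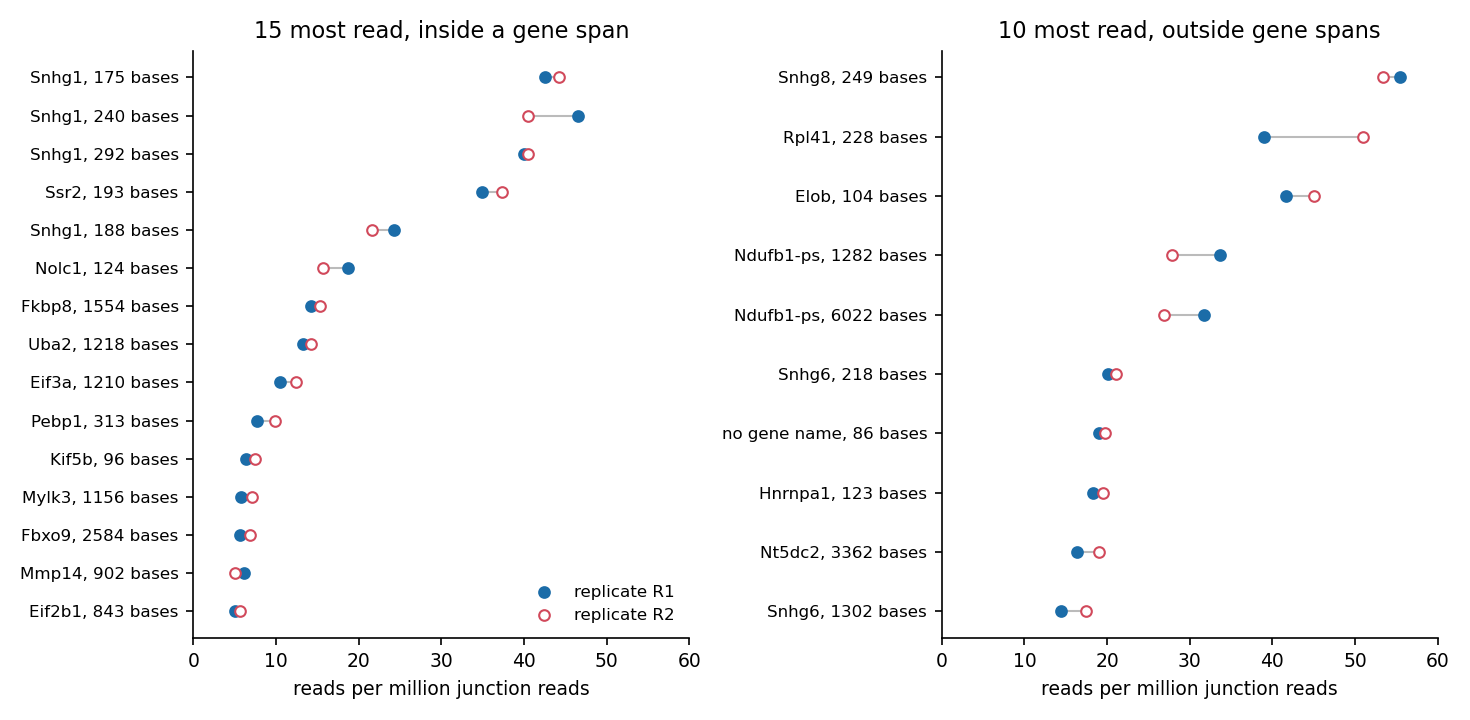
Reads scaled to each replicate's junction total, per 1000000 (x axis) in replicate R1 (filled) and R2 (open) for the 15 most-read members inside gene spans (left) and the 10 most-read outside them (right), each named by its gene and intron length. The grey line joins the replicates, which lie close together for most members, and the Rpl41 member stands at 39.0 in R1 and 51.0 in R2.

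The 10 most-read members outside genes were also mostly in genes that the later annotation holds. The largest of all was chr3:123210781-123211029 on the minus strand, with 4475 reads in R1 and 6103 in R2. It contains Snora24 and matched Snhg8, also a snoRNA host gene. Snhg6, another such host, accounted for chr1:9932473-9932690, which contains Snord87 and had 1625 reads in R1 and 2410 in R2, and for chr1:9932799-9934100, with 1160 and 1996. The ribosomal protein gene Rpl41 had 3148 reads in R1 and 5821 in R2 over chr10:127985486-127985713. Scaled by the replicates' totals, the log2 ratio of R2 over R1 was 0.39 for the Rpl41 member (exact counting interval 0.32 to 0.45). The same ratio was -0.05 (-0.11 to 0.00) for the Snhg8 member. At this scale the median ratio was 0.24 over all members and 0.21 over annotated junctions, so the typical junction was itself higher in R2.

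Elob, which encodes elongin B, had 3365 reads in R1 and 5135 in R2 at chr17:23965946-23966049, an intron that overlapped the ENSEMBL span of the gene without lying in it. Ndufb1-ps, typed as a noncoding RNA by the later annotation, had 2718 reads in R1 and 3179 in R2 at chr12:103206421-103207702 beside the donor and acceptors shown above. Hnrnpa1, an RNA-binding splicing regulator, had 1474 and 2227 reads at chr15:103076853-103076975. Nt5dc2 had 1319 and 2172 reads at chr14:31944563-31947924. The remaining one of the 10, chr7:31711984-31712069 on the minus strand, had 1531 and 2246 reads and matched no later gene.

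Introns that hold a gene of a small RNA were 41 of the 3443 members (1.19%), beside 1.48% of junctions with 1 new site, 2.6% of those joining known sites in a new way and 0.516% of annotated ones. They held snoRNAs alone in 24 cases, microRNAs alone in 11, small nuclear RNAs in 3, small Cajal body RNAs in 2, and a microRNA with a snoRNA in 1. The imprinted cluster of chromosome 12 carries Meg3, Rian and Mirg, noncoding RNAs expressed from the maternal chromosome. There, from the start of Meg3 to the last member matched to Mirg, 33 members lay on the plus strand, 8 inside an ENSEMBL gene and 25 outside, with 14 holding a small RNA gene and 1014 reads in R1 and 1380 in R2 in all. The one with most reads matched Rian, at chr12:110844554-110845623, with 268 reads in R1 and 432 in R2. The region was chosen after these values were seen.

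A later annotation held 885 of the members. A member was counted as matched where the host gene, intron length and exon spacing, or a run of intron, exon and intron length, occurred in GENCODE M21. These 885 (25.7% of 3443) comprised 175 by the gene and 866 by the run, some by both. The others may still be in M21 without a neighbouring intron to match on. The share was 17.7% at 11 to 29 reads, 28.2% at 30 to 99, 44.0% from 100 up to 1000 and 55.6% at 1000 and more. It was 19.2% inside genes, 24.1% among those overlapping a gene, 10.2% among antisense and 34.5% among intergenic members. Matched members were typed as protein-coding in 547 cases, as processed transcripts in 130 and as intergenic long noncoding RNAs in 104.

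**Figure D2:**
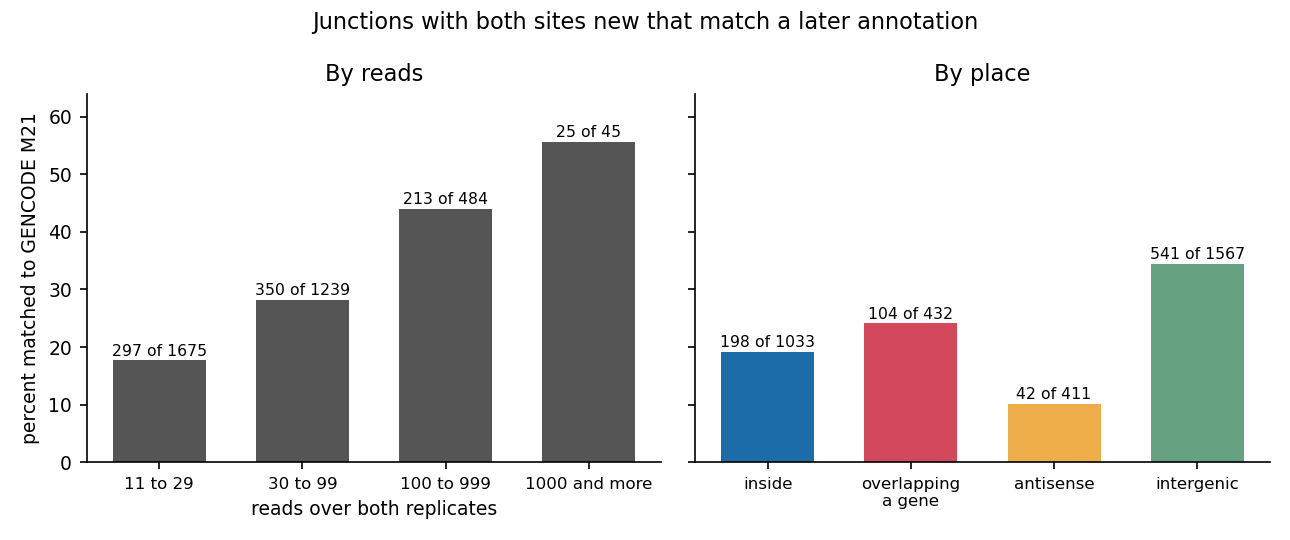
Percent of members matched to GENCODE M21 (y axis), by reads over both replicates (left) and by place among ENSEMBL gene spans (right), with the number matched of the number of members above each bar. The share is 17.7% in the lowest read bin and 55.6% in the highest, and it is highest among intergenic members, at 34.5%. Most matches needed a neighbouring junction, which could be of any class past the threshold. How often another member lay close by differed by place. How often a junction of any class did was not counted by place or by reads.

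Other later genes each took in members of lower depth. Ptprv, named for a receptor tyrosine phosphatase, matched 26 members with 267 reads in R1 and 478 in R2. Srcap, an ATP-dependent chromatin remodeller, matched 15 with 870 and 1864. The pseudogene 2700099C18Rik matched 11 with 1190 and 1743. Prpf4b, a kinase of the spliceosome, matched 7 with 2132 and 2813. Car1, the carbonic anhydrase of red cells, matched 1 intron of chromosome 3 with 497 and 840. These genes were named after their values were seen.

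Many members lay close to another on the same strand. Of the 3443, 1735 (50.4%) had another member starting 20 to 2000 bases after their end or ending as far before their start, as had 45.4% of junctions with 1 new site, 19.6% of those joining known sites in a new way and 98.3% of annotated ones within their own class. The share was 31.6% inside genes and 67.8% among intergenic members. The 1735 formed 436 chains, 87 of them with 5 or more members, and 47.0% of the chains held a member that matched GENCODE M21. The 5 chains with most reads were those of Snhg1, with 6 members and 12439 reads in R1 and 16852 in R2, Rpl41, with 7 and 4447 and 8124, Ndufb1-ps, with 3 and 5708 and 6844, Snhg8, with 3 and 4952 and 6793, and Snhg6, with 5 and 3241 and 4930. A chain of 29 intergenic members at chr12:32761328-32808486, minus strand, had 2607 reads in R1 and 3840 in R2 and no match, and was named after its size was seen.

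The same series' Cufflinks models, assembled from reads, held at least 1 end of 1635 members (47.5%) as an exon boundary and both ends of 1307 (38.0%). Among junctions with 1 new site, 80.4% had at least 1 end in those models, which include known sites. The share with at least 1 end was 31.8% for members inside genes and 62.0% for intergenic ones. The bases on both sides of the intron lay in transcribed contigs for 2994 members (87.0%), for 95.6% of junctions with 1 new site, for 87.2% of those joining known sites in a new way and for 97.6% of annotated ones.

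Members had a median length of 1295 bases, with a 10th percentile of 112 and a 90th of 14695. Junctions with 1 new site had a median of 1266, those joining known sites in a new way 6684 and annotated ones 1278. Inside genes the median was 456 bases and outside it was 1840. Within the outside group it was 1494 for intergenic, 1928 for antisense and 4940 for members overlapping a gene.

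**Figure D3:**
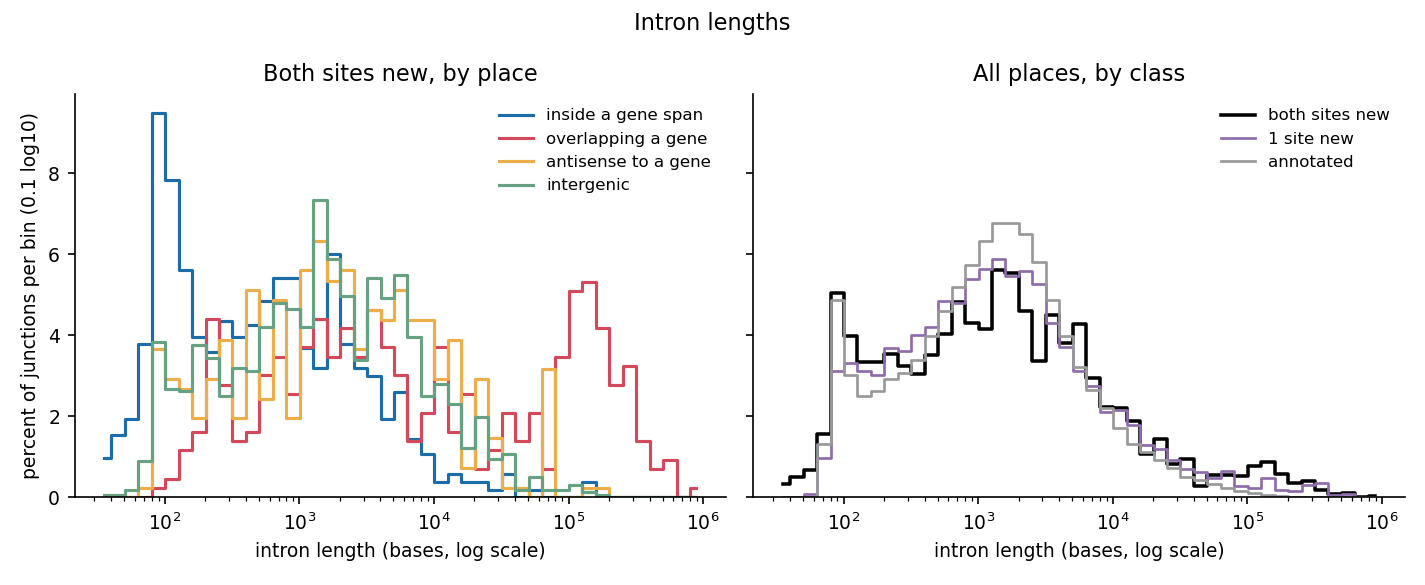
Intron length (x axis, log scale) as percent of junctions per bin of 0.1 log10 units, for members by place (left) and for members, junctions with 1 new site and annotated junctions (right). Members inside genes peak near 100 bases, members overlapping a gene have a second peak above 100000 bases, and the 3 classes overlap along most of the axis.

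At the short end, 65 members (1.89%) were under 70 bases, of which 56 were inside genes and 9 intergenic, against 0.164% of junctions with 1 new site, 0 of those joining known sites in a new way and 0.0817% of annotated ones. The 56 include members of 42 to 54 bases in Sos2 and of 39 and 63 bases in genes with recurring lengths, described below. Those lengths were not set apart, so a length may be counted more than once. Among the shortest inside genes were introns of 36 bases in Gm9701 (15 reads in R1 and 15 in R2) and in the ribosomal protein gene Rpl4 (8 and 11), and an intron of 39 bases in Gm6161 within Adhfe1 (24 and 16), a length that other members share, among them 1 in H19. The Rpl4 member had 0.0396% of the reads of its gene's median annotated junction. The 3 shortest outside genes were 36, 49 and 52 bases long. The 36-base and 49-base introns shared a start on chromosome 3 and had 31 and 10 reads in R1 and 50 and 6 in R2.

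At the long end, 117 members (3.4%) were over 100000 bases, and 103 of these overlapped a gene without lying in it. Of the 117, 76 (65.0%) shared an end with another member and 35 (29.9%) had the same R1 and R2 reads as another member with a shared end or, for members of at least 20 reads, of the same length. The 3 longest outside genes spanned 796828 bases on chromosome 4, across a run of Zfp zinc finger genes, with 10 reads in R1 and 15 in R2, 545359 bases on chromosome 4 with 20 and 43, and 545147 bases on chromosome 17, overlapping Dynlt1a and Dynlt1c, with 83 and 81. The 3 longest inside genes spanned 150958 bases in Cmss1 (13 and 29 reads) and 127279 bases in 2610005L07Rik, where 2 members of that same length had 4 and 6 reads in R1 and 14 and 8 in R2. How reads with several alignments were treated is not stated in the sources used here, and their part in the long members was not tested.

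Members within 1 exon formed a group of their own. Of the 1033 inside genes, 462 lay wholly within an ENSEMBL exon (13.4% of all members, against 6.69% of junctions with 1 new site, 2.25% of those joining known sites in a new way and 4.13% of annotated ones). For 346 of them an exon of the same gene and length in GENCODE M21 gave the sequence, and 345 (99.7%) began with GT and ended with AG. The remaining one began with TG. Whether the flag C=1 or the strand given to a junction rests on these bases is not stated. The choice of members may therefore fix this share, and it is a description. By position, 143 lay in untranslated sequence, 94 in coding sequence, 29 in both and 80 in transcripts with no coding sequence. Of the 75 coding members counted for length, 35 (46.7%) had a length that is a multiple of 3, in untranslated sequence 48 of 143 (33.6%) did, and among the 2981 members not within an exon 34.4% did. The share was 41.4% (12 of 29) for those in both coding and untranslated sequence and 66.2% (53 of 80) for those in transcripts with no coding sequence. That last group includes the 39-base member in Gm6161, whose length recurs in other genes described below. Recurring lengths were not set apart, so its share may count the same length more than once. The 75 coding members lay in 66 genes and are not all independent. They include the members within 1 coding exon of Mki67, described below, whose lengths are all multiples of 3.

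Examples of these short introns are given with their GT and AG in capitals, from GENCODE M21 transcripts.
Srsf2, chr11:116713400-116713462, minus strand: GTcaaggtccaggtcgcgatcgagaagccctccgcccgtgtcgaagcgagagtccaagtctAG
Dlk1, chr12:110698066-110698126, plus strand: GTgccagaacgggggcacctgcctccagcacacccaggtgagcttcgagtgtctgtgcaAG
Afp, chr5:90935570-90935659, plus strand: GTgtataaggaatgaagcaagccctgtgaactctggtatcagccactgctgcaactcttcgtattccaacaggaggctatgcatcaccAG
H19, chr7:149762597-149762635, minus strand: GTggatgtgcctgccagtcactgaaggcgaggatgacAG

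The first is in the coding sequence of the splicing factor Srsf2, is 63 bases long and had 20 reads in R1 and 17 in R2. The second is in Dlk1, a membrane protein with repeats like epidermal growth factor, is 61 bases long and had 8 and 5 reads. The third, of 90 bases in Afp, the main plasma protein of the fetus, had 10 and 5 reads, which was 0.00524% of that gene's median annotated junction. The fourth, of 39 bases in the noncoding RNA H19, had 31 and 24 reads. Each was rare beside the annotated introns of its gene.

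Several genes held members whose lengths recur. In the guanine nucleotide exchange factor gene Sos2, 17 members of 42 to 198 bases lay within a stretch of 201 bases, none of them within an exon and all of them multiples of 3, with 1155 reads in R1 and 1133 in R2. The genes Gm5641 on chromosome 3 and Gm5940 on chromosome X each held 11 members, from 39 to 321 bases, and shared all 11 lengths. For 8 of those lengths the reads of R1 and R2 were the same in both, and 7 of the 8 lengths of Gm11847 on chromosome 4 also occurred in Gm5641. Gm6161 on chromosome 1 held 8 members of 39 to 267 bases, and Gm6254 on chromosome 14 held 5 of 39 to 141 bases. All of their lengths occurred in Gm5641 too. Whether reads were counted at more than 1 of these places was not tested. Over all members, 136 (3.95%) had the R1 and R2 reads of another member with a shared end or, for members of at least 20 reads, of the same length. Repeats of length at lower reads are not in this count.

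**Figure D4:**
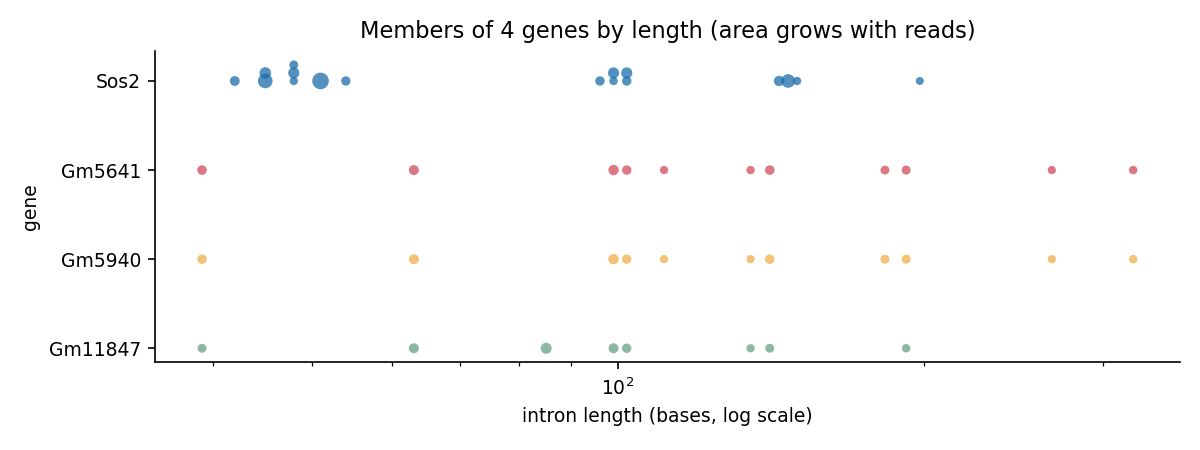
Intron lengths (x axis, log scale) of the members inside Sos2, Gm5641, Gm5940 and Gm11847, 1 point per member with an area that grows with its reads and members of equal length stacked. The rows of Gm5641 and Gm5940 hold the same 11 lengths.

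The 1033 members inside genes fell into 666 genes, of which 516 held 1 member, 129 held 2 to 4 and 21 held 5 or more. Of these genes 530 (79.6%) had at least 1 RPKM, a read density scaled by length and depth, in both replicates of the mm9 gene table, against 23.6% of all ENSEMBL genes. A gene can hold a member only where the same study's reads fall, so the rule fixes much of this contrast. By type, 561 were protein-coding and 37 were pseudogenes of 627 with a type. Mgam, an intestinal enzyme that digests starch, held most, with 38 members in 1 chain, 473 reads in R1 and 770 in R2, and a level of only 0.246 and 0.311 RPKM. Of the 38, 37 had an end in the Cufflinks models, 16 matched GENCODE M21 and 8 shared an end with another. An intron of 91 bases recurred within Mgam, and a member of 36659 bases ran from the start of the first to the end of the second. Whether reads were counted at more than 1 of these places was not tested. Firre held 34 members, of which 30 shared an end with another and 15 matched GENCODE M21, with 905 reads in R1 and 1598 in R2.

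Other host genes among the 10 with most members were Gm20388 with 25, Sos2 with 17, Gm5641 and Gm5940 with 11 each, and Afp, Gm11847 and Adhfe1 with 8 each. The Adhfe1 members lay in Gm6161, a gene within its span. The span of Gm20388 covers 4434882 bases, and 23 of its 25 members lay in no other gene of that strand, while the median span of all ENSEMBL genes is 5362 bases. Together the 10 genes held 179 of the 1033 members. Without them, 26.2% of the remaining members were inside a gene.

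The marker lists show which members fell in genes of known cell types, and levels in whole tissue cannot tell fewer cells from less RNA per cell. Among all 37310 ENSEMBL gene rows, 666 held a member. Among the 8798 with at least 1 RPKM in both replicates, 530 did. Inside the 21 erythroid genes lay 13 members, in 7 genes, of 13 to 98 reads, and 10 of them were under 1% of the gene's median annotated junction. The highest was in Kel, a red cell surface antigen, with 28 reads in R1 and 70 in R2. Alas2, the first enzyme of haem synthesis in red cells, held 2 members, with 12 and 18 reads in R1 and 10 and 28 in R2. Slc4a1, the anion exchanger of the red cell membrane, held 3, of 18, 54 and 28 reads over both replicates. Car2 and Nfe2 held 2 each, and Gata1 and Slc25a37 held 1 each.

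Inside the 16 fetal hepatocyte genes lay 23 members, in 8 genes, of 13 to 306 reads, with 22 of them under 1% of the gene's median annotated junction. Afp had 8, and its highest had 114 reads in R1 and 192 in R2, at chr5:90926359-90927294, which was 0.107% of the gene's median. Alb, the albumin gene, had 2, the higher with 59 and 69 reads and 0.0307%. Trf, the iron carrier of plasma, had 3, H19 had 4, Dlk1 and Igf2 had 2 each, and Apoa1 and Ahsg had 1 each. None of these 23 members had an end in the Cufflinks models, and 2 of the 13 erythroid ones did.

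Of the other lists, Itga2b, the platelet integrin, held 2 members, with 18 and 24 reads in R1 and 12 and 28 in R2. Among proliferation genes, Rrm2 held 1 member and Mki67 held 4, all within 1 coding exon, with lengths of 1767, 2118, 2130 and 2481 bases and 12 to 31 reads. Among splicing factors, Srsf2 and Tra2a held 1 each. No member lay inside a gene of the macrophage, neutrophil, endothelial, stellate, lymphoid or muscle lists. Few genes of any kind held a member, so a short list can easily hold none and nothing is read from this. The lists hold 6 to 21 genes each, and the lymphoid and muscle genes were at 1 TPM or more in both libraries for only 2 of 8 genes each.

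Opposite known genes, 411 members lay on the other strand alone. The one with most reads was chr17:29791485-29795089 on the minus strand, against Cmtr1 and Rnf8, with 467 reads in R1 and 775 in R2, followed by chr10:93146696-93148022 against Ntn4 with 318 and 489. Against erythroid genes, Tal1, a transcription factor of blood stem cells and red cell precursors, had a member at chr4:114730515-114730661 with 80 reads in R1 and 135 in R2. Gata1, the central transcription factor of red cells, had one at chrX:7543547-7553564 with 53 and 94. Ank1, the membrane ankyrin, had one with 6 and 10. Stab1, of liver endothelium, and Neb, of skeletal muscle, had 1 each, with 11 and 15 and with 24 and 28 reads.

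Between the replicates, reads were scaled by each replicate's total over all junctions. At this scale 783 of 3443 members (22.7%) were at least 2-fold apart, beside 13201 of all 151231 junctions past the threshold (8.73%). Reproducibility between the replicates chose the members, so nothing is read from the difference. By depth the share was 33.3% at 11 to 29 reads, 16.5% at 30 to 99, 4.55% from 100 up to 1000 and 0 of 45 at 1000 and more, and for annotated junctions it was 31.0%, 13.5%, 1.87% and 0.288% in the same bins. Of the 783, 549 (70.1%) were higher in R2 at this scale and 385 of 721 (53.4%) were when scaled by the median ratio of annotated junctions. Among those of the 151231 junctions that were apart, the share higher in R2 was 66.3% at the first scale and 44.8% at the second. In R1, 5 members had no read.

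**Figure D5:**
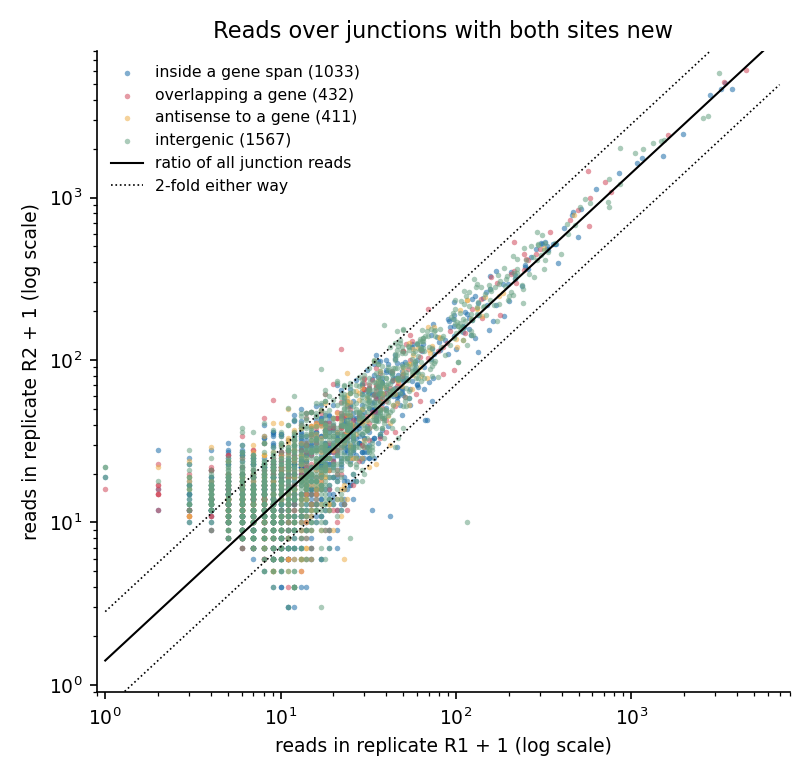
Reads plus 1 in replicate R2 (y axis) against replicate R1 (x axis), both on log scales, for all 3443 members coloured by place. The solid line is the ratio of all junction reads and the dotted lines are 2-fold from it. The spread narrows as reads increase, and the 45 members with at least 1000 reads all lie between the dotted lines.

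The threshold falls at a step of the irreproducibility value, which takes 19 levels in the list. The 281 members at 0.009, just inside, had 11 to 26 reads and a median of 14. The 314 junctions at 0.011, just outside, had 10 to 22 reads and a median of 13. Inside, the highest of these were in Gm15710 with 16 reads in R1 and 10 in R2, opposite Zfp341 with 2 and 23, and intergenic on chromosome 13 with 4 and 20. Outside, the highest were intergenic on chromosome 9 with 4 and 18, intergenic on chromosome 1 with 12 and 9, and opposite Vti1a with 4 and 17.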

How the data were processed

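The junction list was deposited by the authors on mm9 as whole-number read counts of replicates R1 and R2, which it ties to no library, with a significance score that was read as an irreproducibility value. A value of at most 0.01 coincided with a further deposited number of 11 or more, whose meaning the list does not give. The contig signal and its score were deposited for both replicates together, and only contig positions were used. The exon and gene positions, with RPKM values, were deposited for ENSEMBL and Cufflinks models. The expected counts and TPM values were made by the authors on mm10 with GENCODE M4, per the file headers, with 100477392 expected counts in replicate 1 and 154601605 in replicate 2. Neither the aligner nor the junction caller is named in the sources used here.

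An end was known where it coincided with an ENSEMBL exon boundary of either strand. All 174152 annotated junctions had both ends on such boundaries. Inside meant wholly within 1 gene span of the same strand. Of 37310 gene rows, 32620 had a symbol. Scaled reads used totals over the list. Intervals are exact Clopper-Pearson or order-statistic intervals at 95% and cover counting error only, as reads without molecular identifiers are not independent molecules, and no test was run, as junctions are not replicates of a condition. Those for shares and medians also treat junctions as independent. Of the members, 1269 (36.9%) shared an end with another and 1735 (50.4%) were chained, so these intervals may be too narrow. The libraries come from littermates, and the labels do not say whether they share animals, so their spread may be partly technical. No genome of mm9 was used. Sequences come from GENCODE M21 transcripts. Members and lists were chosen with earlier results of these data known. Named junctions are the 15 inside and 10 outside with most reads, the 3 longest and shortest of each, those nearest the threshold, the 5 chains with most reads, the 10 genes with most members and marker genes that hold one. The classification was checked on simulated junctions. Python 3.11.15, pandas 2.3.3, numpy 2.4.6 and scipy 1.17.1 were used. The members of 1 gene are not reported here by name and were left out of the share of coding introns with lengths in multiples of 3.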

Additional observations from a re-analysis of the deposited data

How the results depend on the processing

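Of 67 values under 15 alternatives, 48 stayed within the 95% interval of the value reported, or within 1.5 times a count. The alternative of at least 10 reads could move none of its values, as every member had at least 11 reads. A stricter irreproducibility value of 0.001 left 1462 members with a median of 70 reads, 11.4% of them at least 2-fold apart, 53.6% with a Cufflinks end and 47.3% chained. A looser 0.1 gave 7356 members, 31.8% inside genes, with a median of 13 reads, 36.9% apart and 40.8% with a Cufflinks end. Inside became 42.6% with any overlap of a gene and 39.0% within a gene of either strand. Counting 1 member per set of shared ends gave a median length of 1098 bases. The share apart was 20.9% with the median ratio of annotated junctions, 1.64, in place of the ratio of totals, 1.41, and 39.9% with no scaling. A gap of 20 to 500 bases chained 47.2%. Without replicate 1 or without replicate 2, members with a read in the other replicate were kept and were not chosen anew. Reads then had medians of 12 to 19. Nearly all members had reads in both replicates, so the other values could hardly move. The number of members was 3438 to 3443, the share inside 30%, the length 1295 to 1296 bases, the share with a Cufflinks end 47.5% and the share chained 50.3 to 50.4%. 2 alternatives were chosen after seeing the data: without the members of the 10 genes with most members the share inside was 26.2%, and without the 136 members that repeat another's reads no value moved past its interval. No paired analysis was possible because there is 1 group. Beyond the changed sets themselves, the causes were not tested. Low reads limit the ratio between replicates.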
